A study of Mus musculus with 24 samples.

Results

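MC38 cells, a mouse line labelled as colon adenocarcinoma, were compared with a single guide RNA against B2m (sgB2m) and with a non-targeting guide (sgNT). B2m is beta-2 microglobulin, the light chain carried by MHC class I molecules. The comparison rested on 6 bulk RNA-seq libraries, 3 per guide, of the 24 libraries and 8 groups in the series, which also held LLC1, AKR and Hepa1-6 cells with the same pair of guides. Both MC38 groups grew in DMEM with fetal bovine serum, and the labels name no other treatment. Per the labels' protocols, the libraries were strand-specific and made from total RNA. The labels do not say whether the 3 replicates were separate cultures or whether each guide's cells were a clone or a pool, so p-values measure the spread between these libraries only, and an effect of the guide cannot be told apart from a difference between 2 cell populations. The members were chosen by a rule on level, with earlier results of these data known. Genes whose log2 normalised count reached 3.5 in 3 or more libraries were kept, which were 16532 of the 28774 genes in the MC38 table. A normalised count is the number of reads of a gene divided by the size factor of its library, and the deposited log2 values hold that number plus 1.

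The labelled cell type was checked against marker genes. Of 20 intestinal epithelial markers, 8 had reads and 4 passed the level filter, among them Cdh1 and Lgals4. The summed normalised count of the list was 649 to 702 in the sgNT libraries and 425 to 482 in the sgB2m libraries, and Epcam, Cdx2, Krt20, Lgr5 and Fabp1 had no reads. Fibroblast markers summed to 51165 to 54050.4 with sgNT and 85486 to 87515 with sgB2m, with Fap and Lum at 0. Most markers of the labelled epithelial origin were thus at 0, and the cells are called MC38 cells below. In bulk samples, more cells of a type and more RNA per cell cannot be told apart. Markers of T and NK cells, B cells and hepatocytes summed to at most 70.4 in any library, with Cd3e and Alb at 0. Myeloid markers, with Itgam and C1qa at 0, summed to 1694 to 1906 with sgNT and 1647 to 1857 with sgB2m, most of it from Cd68 and Cd14. Squamous markers, with Krt5 and Ivl at 0, summed to 2211 to 2406 with sgNT and 1992 to 2059 with sgB2m, most of it from the keratin Krt14. Endothelial markers, with Kdr, Emcn and Cldn5 at 0, summed to 288 to 342 with sgNT and 414 to 484 with sgB2m, most of it from Vwf. The part of these markers in the results was not tested.

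The acute-phase response is a change in secreted plasma proteins that the liver and many mesenchymal cells make when cytokines of the IL-6 family signal through the shared receptor chain gp130 to STAT3, or when IL-1 acts through NF-kB and C/EBP factors. Its products include protease inhibitors, pentraxins, iron-binding proteins and complement components. Small leucine-rich proteoglycans and thrombospondins are secreted matrix proteins that bind collagen fibrils and growth factors, and the EGF receptor pathway drives ERK kinase, which induces its own phosphatases and inhibitors as feedback.

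With limma's moderated test and Benjamini-Hochberg adjustment over all 16532 genes, 5251 genes differed at an adjusted p under 0.05, which is 31.8% of those tested. Of these, 2636 rose in sgB2m (15.9%) and 2615 fell (15.8%), and 574 rose at least 2-fold (3.47%) and 405 fell at least 2-fold (2.45%). Without sgNT replicate 2 or 3 the genes that fell at least 2-fold numbered 268 and 263. Of the tested genes, 133 passed the level filter only through the sgB2m libraries, and 96 of these rose. A further 107 passed only through the sgNT libraries, and 93 of these fell. The median log2 fold change of all tested genes was 0.00. Most changes were small, since the median size among called genes was 0.415 on the log2 scale. The 3 values of one guide lay wholly above those of the other for 7441 genes (45%). Total reads were 33297139 to 38314333 in the sgB2m libraries and 28352817 to 49717598 in the sgNT libraries. The sgNT libraries differed more among themselves: on the second principal component, which held 13.2% of the variance, sgNT replicates 1 and 2 stood at opposite ends. Values below are normalised counts for sgNT replicates 1, 2 and 3 set against those for sgB2m replicates 1, 2 and 3, followed by the ratio of the group means. B2m itself, the targeted gene, counted 31028, 32813 and 33414 with sgNT and 9721, 9507 and 9157 with sgB2m, a 3.43-fold fall in which the guides did not overlap. The rule for most named genes required that the guides did not overlap, so the lack of overlap describes those genes and is no finding about them. All gene lists below were chosen with earlier results of these data known, so their counts and medians are descriptions. Log2 fold changes come from log2(normalised count + 1), which understates changes of low genes.

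Acute-phase genes rose together in sgB2m MC38 cells. Of 28 listed genes, 22 had an entry in the table and 18 were tested. Of these 18, 16 rose, none fell, 2 did not pass the test, and 14 rose at least 2-fold, beside 15.9% rising and 3.47% rising at least 2-fold among all genes. Of the 16 that rose, 2 (Lrg1 and Orm1) passed the level filter only through the sgB2m libraries, and without any 1 sgB2m library 13 of 16 tested rose. The median log2 fold change of the tested members was 2.95, and 1.93 with a pseudocount of 8 in place of 1, which shrinks the change of low genes. Serpina3n, a secreted inhibitor of serine proteases, had 362, 403 and 358 normalised counts with sgNT and 9275, 9464 and 9255 with sgB2m. The means were 374 ± 24.7 with sgNT and 9331 ± 116 with sgB2m (SD, n = 3), a 24.9-fold rise (log2 fold change 4.64 ± 0.063 SE, adjusted p = 5.72e-11). The 3 sgB2m libraries lay close together and more than an order of magnitude above every sgNT library.

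The Serpina3 genes lie side by side on chromosome 12 between 104.21 and 104.41 Mb (mm10), and all 6 tested rose. Serpina3g counted 439.6, 486 and 489.8 with sgNT and 3316, 3648 and 3494 with sgB2m, a 7.39-fold rise. Serpina3m counted 151, 148 and 127 against 1388, 1386 and 1307, a 9.56-fold rise. Serpina3i counted 43.7, 28.7 and 19.4 against 344, 373 and 358, an 11.7-fold rise. No sgNT library reached any sgB2m library for these genes. Serpina3f went from 10.7, 0 and 4.31, which rests on 17 reads over the sgNT libraries, to 114, 149 and 138, and Serpina3h rose 2.56-fold. These genes are close paralogs, so reads may have been split between them. Of the flanking genes, chosen after their values were seen, Serpina9 was not called (log2 fold change 0.43) and Dicer1, the RNase of microRNA maturation, rose by only 0.28.

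Ptx3, a pentraxin that binds microbes and complement C1q, counted 145, 182 and 207 with sgNT and 4099, 4460.3 and 3979 with sgB2m, a 23.5-fold rise (log2 fold change 4.56 ± 0.12 SE, adjusted p = 7.13e-09). Cp, the copper-carrying ferroxidase ceruloplasmin, counted 409, 342 and 359 against 2973, 3116 and 2946, an 8.14-fold rise (log2 fold change 3.03 ± 0.082 SE, adjusted p = 7.23e-09). Both genes were low in all 3 sgNT libraries and high in all 3 sgB2m libraries. Saa3, a serum amyloid protein, counted 202, 176 and 290.2 against 797, 853 and 822, a 3.7-fold rise, and Steap4, a metalloreductase, rose 3.27-fold. The metallothioneins Mt2 and Mt1 rose by 0.71 and 0.43 on the log2 scale. Of the 18 members, 7 were tested in all 4 cell lines, and for each of these the change was more positive in MC38 than the mean change of the other lines, a call that 20.8% of the 12674 genes tested in all lines received. The other lines differed among themselves. In Hepa1-6, 6 of 10 tested members rose and 1 fell (median 0.52). In AKR, 1 of 8 rose and 6 fell (median -0.82), and in LLC1, 4 of 12 rose and 4 fell (median 0.07).

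**Figure D1:**
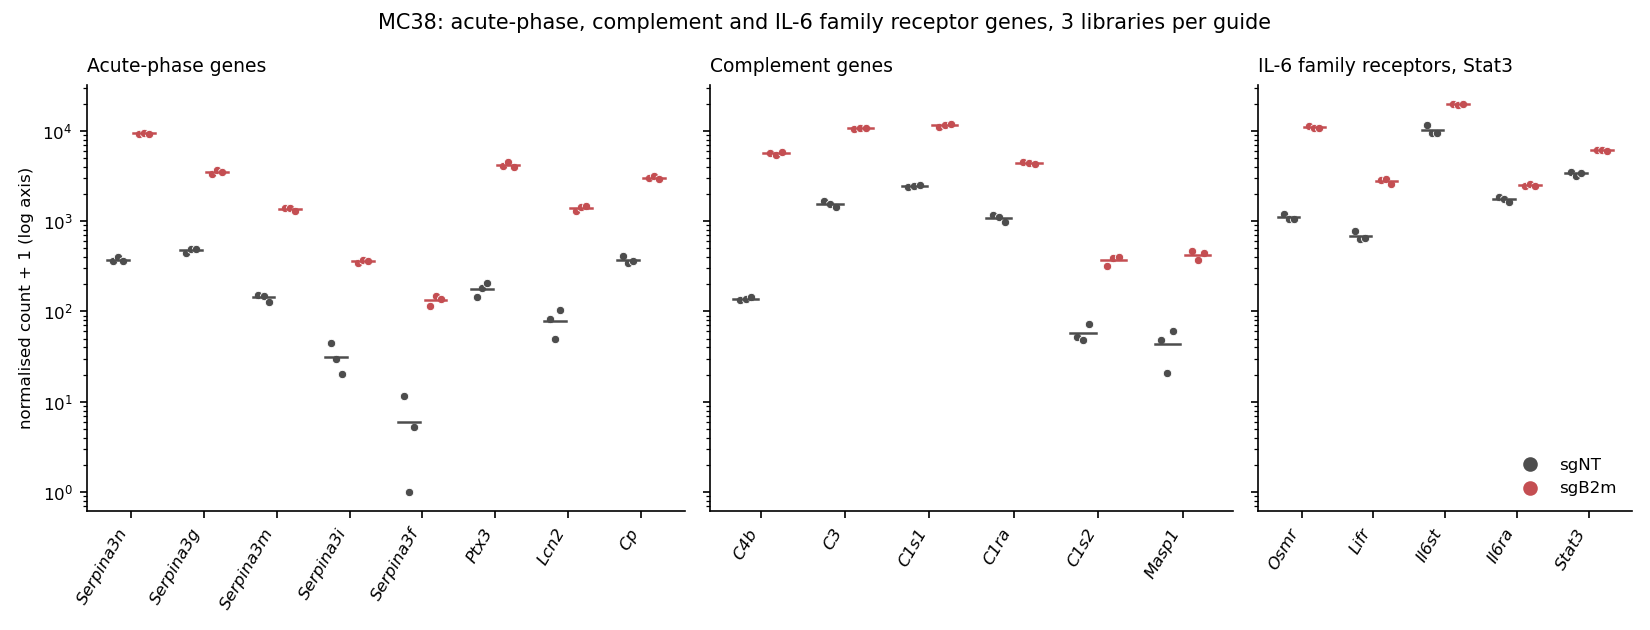
Normalised count plus 1 on a log axis in each of the 6 MC38 libraries (grey, sgNT; red, sgB2m; lines, group means) for acute-phase, complement and IL-6 family receptor genes. Serpina3n, Ptx3, C4b and Osmr had no overlap between guides, with folds of 24.9, 23.5, 41.1 and 9.94, while Il6ra rose 1.43-fold.

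The 250 bases before the start of these genes were read for 2 motifs tied to acute-phase control, because the genes rose together. The STAT palindrome was searched as TTCNNNGAA and the C/EBP core as TTGCNNAA, on both strands. Sequences came from RefSeq (GRCm38.p6, the build of mm10), which gave a matching start for 9507 of the 16532 genes. Of the 16 acute-phase genes that rose, 12 had a promoter. The STAT letters stood in 4 of these 12 (33.3%) and in 5.86% of all 9507 promoters, and the C/EBP letters in 6 of the 12 (50%) and in 7.29% of all. Of the 4 STAT matches, 3 were in paralogs of the Serpina3 family on the same chromosome. The 2 tested members with a promoter that did not rise held matches as well, so the whole list gave 5 of 14 (35.7%) and 7 of 14 (50%). Serpina3n, Cp, Lrg1 and Mt1 rose and held neither motif in this window. The NRF1 motif, searched besides, stood in 0 of the 12 and in 8.54% of all. Promoters of 5 acute-phase genes and of the complement gene C3 that hold a match are given, to show where the letters lie, 5′ to 3′ on the strand of the gene, with matches in capitals.
Serpina3f, chr12:104214294-104214543, plus strand: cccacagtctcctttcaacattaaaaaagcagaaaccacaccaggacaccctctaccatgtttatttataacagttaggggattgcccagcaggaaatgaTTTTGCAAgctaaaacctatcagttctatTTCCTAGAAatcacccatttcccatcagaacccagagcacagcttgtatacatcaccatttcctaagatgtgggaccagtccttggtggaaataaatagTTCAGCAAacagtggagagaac
Serpina3g, chr12:104235897-104236146, plus strand: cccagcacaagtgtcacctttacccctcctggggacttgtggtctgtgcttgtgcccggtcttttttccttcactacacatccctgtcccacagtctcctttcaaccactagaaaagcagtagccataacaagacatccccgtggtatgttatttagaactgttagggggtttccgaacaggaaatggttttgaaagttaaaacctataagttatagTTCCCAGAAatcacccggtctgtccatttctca
Serpina3i, chr12:104262872-104263121, plus strand: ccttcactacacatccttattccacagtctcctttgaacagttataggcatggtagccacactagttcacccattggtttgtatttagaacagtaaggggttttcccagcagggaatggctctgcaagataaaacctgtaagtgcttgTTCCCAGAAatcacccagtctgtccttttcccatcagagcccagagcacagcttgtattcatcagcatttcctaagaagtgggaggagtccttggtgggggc
Steap4, chr5:7960222-7960471, plus strand: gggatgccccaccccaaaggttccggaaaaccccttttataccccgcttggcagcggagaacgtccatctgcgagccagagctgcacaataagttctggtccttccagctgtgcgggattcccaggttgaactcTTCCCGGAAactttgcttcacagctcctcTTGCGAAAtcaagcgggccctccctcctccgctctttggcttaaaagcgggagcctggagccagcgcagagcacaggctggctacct
Ptx3, chr3:66219637-66219886, plus strand: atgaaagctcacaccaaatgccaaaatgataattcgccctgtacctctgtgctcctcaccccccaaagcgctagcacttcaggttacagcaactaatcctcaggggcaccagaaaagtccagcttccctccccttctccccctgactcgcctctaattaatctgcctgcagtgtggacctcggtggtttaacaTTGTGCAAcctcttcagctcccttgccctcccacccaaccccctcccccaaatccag
C3, chr17:57228137-57228386, minus strand: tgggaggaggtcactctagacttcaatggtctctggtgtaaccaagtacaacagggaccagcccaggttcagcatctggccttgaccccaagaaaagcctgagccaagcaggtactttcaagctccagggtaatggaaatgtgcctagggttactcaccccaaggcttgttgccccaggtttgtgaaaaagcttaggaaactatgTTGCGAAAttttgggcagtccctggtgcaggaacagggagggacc

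Counted from the start site, the STAT match stood at -121 to -113 in Serpina3f, -33 to -25 in Serpina3g, -102 to -94 in Serpina3i and -116 to -108 in Steap4. C/EBP matches stood at -150 to -143 and -22 to -15 in Serpina3f, -87 to -80 in Steap4, -57 to -50 in Ptx3 and -45 to -38 in C3. The matches did not overlap each other. Of the 7 complement genes that rose and had a promoter, 0 held the STAT letters and 3 held the C/EBP letters (42.9%), beside 3 of 11 (27.3%) over all tested complement genes with a promoter. These are matches of letters only, and no binding was measured. Of the genes that encode C/EBP factors, Cebpd rose 1.97-fold and Cebpb 1.5-fold, and the other 3 tested did not pass.

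Complement genes also rose. Of 30 listed genes, 19 were tested, 13 rose (68.4%, beside 15.9% of all genes), 2 fell (10.5%, beside 15.8%) and 4 did not pass. In all, 10 rose at least 2-fold, and the median log2 fold change was 1.07. C4b, a component of the classical and lectin pathways, counted 133, 135 and 144 with sgNT and 5735, 5397 and 5812 with sgB2m, a 41.1-fold rise (log2 fold change 5.35 ± 0.075 SE, adjusted p = 5.72e-11). Its near-identical neighbour C4a went from 71.8, 61.1 and 81.2 to 278, 291 and 292, and the reads of the pair cannot be cleanly separated. The groups did not overlap for either gene. C3, the central component that all pathways cleave, counted 1649.6, 1554 and 1439 against 10377, 10683 and 10766, a 6.85-fold rise.

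The proteases that start the classical pathway rose as well. C1s1, the C1s protease, counted 2408, 2466 and 2488 with sgNT and 11084, 11641 and 11876 with sgB2m, a 4.7-fold rise. C1s2, its paralog, counted 51.4, 47.4 and 71.8 against 314, 394 and 395, a 6.47-fold rise. C1ra, the C1r protease, rose 4.06-fold and C1rl, a C1r-like protease, 2.65-fold; both fall outside the naming rule and were chosen after their values were seen, because the 4 genes lie together on chromosome 6 between 124.49 and 124.64 Mb. Masp1, a protease of the lectin pathway, counted 47.5, 20 and 59.6 against 464, 369 and 438, a 10-fold rise (log2 fold change 3.42 ± 0.34 SE, adjusted p = 6.38e-05). Cfb, factor B of the alternative pathway, rose only 1.84-fold. The proteases and C3 all stood higher in each sgB2m library than in any sgNT library, which the naming rule required of C3, C1s1, C1s2 and Masp1. Of 13 complement genes tested in all 4 lines, 9 changed more positively in MC38 than in the mean of the other lines and 1 more negatively. Over the 12674 genes tested in all lines, these calls went to 20.8% and 20.9%.

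Several receptors of the IL-6 family rose. They stand in a list of 15 receptor, STAT, JAK and SOCS genes that was drawn up after the values were seen, so its count is a description only: of 13 tested, 8 rose (61.5%, beside 15.9% of all genes), 2 fell and 3 did not pass. Osmr, the receptor chain for oncostatin M, counted 1191, 1059 and 1047 with sgNT and 11358, 10785 and 10637 with sgB2m, a 9.94-fold rise (log2 fold change 3.31 ± 0.061 SE, adjusted p = 4.24e-10). Its partner Il6st, which encodes gp130, counted 11520.0, 9558 and 9400.5 against 19544, 19259 and 19829, a 1.92-fold rise (log2 fold change 0.95 ± 0.069 SE, adjusted p = 8.09e-06). Stat3, the transcription factor these receptors activate, counted 3525, 3171 and 3448 against 6128, 6169.6 and 5950.2, a 1.8-fold rise. All 3 sgB2m libraries were above all 3 sgNT libraries for each of these genes. Lifr, the LIF receptor chain and the neighbour of Osmr on chromosome 15, rose 4.07-fold (log2 fold change 2.03 ± 0.093 SE, adjusted p = 3.39e-07). Socs3, a feedback inhibitor of gp130 signalling, rose 1.45-fold, whereas Socs2, an inhibitor of growth hormone signalling, fell 2.34-fold (log2 fold change -1.23 ± 0.14 SE, adjusted p = 0.00016). Among ligands, Il6 counted 4.85, 23.7 and 17.2 against 66.1, 77.1 and 65.6, 48 reads in all with sgNT, and Il11 fell from 102, 143 and 109 to 30.4, 26 and 25.7.

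Other genes of interleukins and their receptors changed in both directions. Of 44 tested, in a list that also holds Osmr and Il6, 21 rose (47.7%) and 6 fell (13.6%). Over all genes 15.9% rose and 15.8% fell. Il13ra1, a receptor chain for IL-13 and IL-4, counted 58.2, 53.6 and 27.3 with sgNT and 409.9, 489 and 490.3 with sgB2m, a 9.99-fold rise. Il2rg, the common gamma chain, counted 449, 601 and 554 against 68.3, 77.1 and 44.7, an 8.45-fold fall (log2 fold change -3.08 ± 0.22 SE, adjusted p = 6.03e-06). Tslp, an epithelial alarmin, counted 434, 453 and 404 against 66.1, 99.8 and 96, a 4.93-fold fall. None of these genes overlapped between guides. Il1r1, the signalling IL-1 receptor, rose 2.89-fold.

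Several small leucine-rich proteoglycans rose by large factors. This list of 16 was also drawn up after the values were seen, so its count and median describe the genes that prompted it and support nothing further. Of 8 tested, 7 rose and none fell, with a median log2 fold change of 2.44, or 1.49 when genes below the level filter were included. Ogn, osteoglycin, counted 6.79, 12.5 and 15.8 with sgNT and 440.2, 438 and 429 with sgB2m, a 37.3-fold rise (log2 fold change 5.18 ± 0.29 SE, adjusted p = 1.39e-06). Aspn, asporin, counted 73.7, 26.2 and 32.3 against 994, 895 and 936, a 21.4-fold rise (log2 fold change 4.53 ± 0.31 SE, adjusted p = 5.63e-06). Omd, osteomodulin, rose 8.18-fold and Ecm2 3.88-fold. Ogn stayed at or below 15.8 in the sgNT libraries, and all 4 genes were higher in each sgB2m library than in any sgNT library. These 4 genes are adjacent on chromosome 13 between 49.50 and 49.62 Mb, within the span of Cenpp, a centromere gene on the opposite strand. Cenpp counted 326, 333 and 287 against 296, 338 and 276 and was not called (log2 fold change -0.06, adjusted p = 0.758). The strand setting of the counting is not given in the sources used here.

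Some small leucine-rich proteoglycans elsewhere in the genome rose too. The wider list of proteoglycan and hyaluronan genes went both ways: of 23 tested, 8 rose (34.8%) and 6 fell (26.1%), with a median of 0.19. Over all genes 15.9% rose and 15.8% fell. Dcn, decorin, counted 2520.0, 2416 and 2533 with sgNT and 13880.0, 13684 and 13789 with sgB2m, a 5.54-fold rise (log2 fold change 2.47 ± 0.042 SE, adjusted p = 2.88e-10). Prelp counted 2572, 2455 and 2617 against 13733, 13481 and 13510.0, a 5.33-fold rise. Bgn, biglycan, which was already abundant, counted 33605, 34465 and 34737 against 60978, 61391 and 61751, a 1.79-fold rise. The spread within each guide was small beside the gap for these 3 genes. Podnl1 was not called (log2 fold change -0.09). Bgn lies at 70 to 80 Mb of the X chromosome, where 47 of 74 tested genes rose (63.5%) and 0 fell. Prelp lies at 130 to 140 Mb of chromosome 1, where 41 of 99 rose (41.4%) and 3 fell (3.03%). Around Dcn, at 90 to 100 Mb of chromosome 10, 3 of 41 rose (7.32%) and 14 fell (34.1%). The part of position in these rises was not tested.

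Of 44 tested matrix proteins and crosslinkers, 25 rose (56.8%), 9 fell (20.5%) and 10 did not pass, with a median log2 fold change of 0.43. Over all genes 15.9% rose and 15.8% fell. Thbs1, thrombospondin, a matrix glycoprotein that activates TGF-beta and restrains vessel growth, counted 1773, 1756 and 1679 with sgNT and 34793, 34131 and 34699 with sgB2m. This was a 19.9-fold rise (log2 fold change 4.31 ± 0.041 SE, adjusted p = 3.68e-12), and the gene had the lowest adjusted p of the genes named here. Sned1, a secreted matrix protein, counted 664, 664 and 574 against 7399, 7313 and 7271, an 11.6-fold rise. For neither gene did the guides overlap. Fbln5, which helps elastic fibres assemble, rose 4.49-fold. P4ha3, a collagen prolyl hydroxylase, rose 3.7-fold, and Eln, elastin, rose from 24.3, 31.2 and 34.5 to 87.8, 106 and 106, 3.34-fold.

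Collagen genes did not share a direction. Of 27 tested, 9 rose (33.3%, beside 15.9% of all genes), 10 fell (37%, beside 15.8%) and 8 did not pass, with a median of -0.10. The 2 chains of type I collagen moved apart: Col1a1 counted 3827, 3764 and 3754 with sgNT and 11162, 10610.4 and 12359 with sgB2m, a 3.01-fold rise (log2 fold change 1.59 ± 0.057 SE, adjusted p = 6.54e-08). Col1a2 counted 11669, 11816 and 11254 against 5276, 4833 and 4883, a 2.32-fold fall (log2 fold change -1.21 ± 0.047 SE, adjusted p = 1.09e-07). Both chains are needed for the usual type I trimer. Col12a1, a collagen that decorates fibrils, counted 42.7, 36.2 and 12.2 against 517, 393 and 451, a 14.9-fold rise. Col5a2 and Col4a5, of fibrils and basement membranes, rose 3.14-fold and 3.07-fold. Without the genes of chromosomes 1, 18 and X, 5 collagens rose in place of 9.

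**Figure D2:**
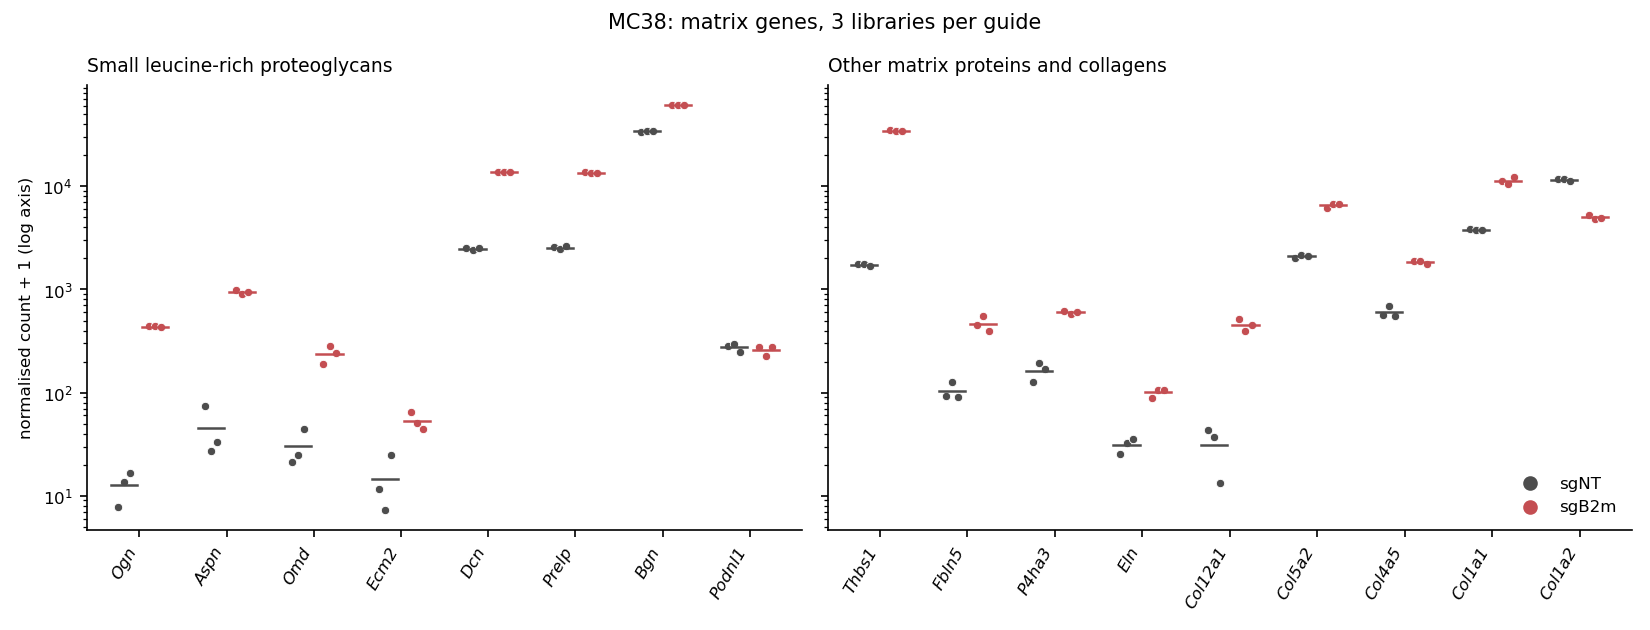
Normalised count plus 1 on a log axis in each MC38 library (grey, sgNT; red, sgB2m; lines, group means) for small leucine-rich proteoglycans and other matrix genes. Ogn, Aspn and Thbs1 rose 37.3-fold, 21.4-fold and 19.9-fold, Podnl1 did not pass the test, and Col1a1 and Col1a2 moved in opposite directions.

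Other genes of cell surface and matrix fell. Has2, a hyaluronan synthase, counted 366, 338 and 374 with sgNT and 80.2, 74.9 and 74.1 with sgB2m, a 4.7-fold fall. Itga7, a laminin-binding integrin chain, counted 436, 333 and 322 against 87.8, 66.2 and 52.3, a 5.29-fold fall (log2 fold change -2.40 ± 0.22 SE, adjusted p = 3.07e-05). Adamts8, a secreted metalloproteinase, counted 76.7, 79.8 and 66.8 against 7.59, 0 and 0, with 7 reads in all left in the sgB2m libraries, and with any sgNT library left out it no longer passed the level filter. All 3 genes had every sgB2m library below every sgNT library. Acta2, smooth muscle actin, went the other way, from 95.1, 92.3 and 171 to 708, 765 and 671, a 5.98-fold rise, and Fat4, a giant protocadherin, rose from 43.7, 37.4 and 20.1 to 490.1, 466 and 518. Of 27 integrins and laminins 7 rose (25.9%) and 9 fell (33.3%), beside 15.9% and 15.8% of all genes. Without sgNT replicate 2, 5 rose and 5 fell.

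Genes of the EGF family and of ERK feedback fell as a group. Of 31 listed and 27 tested, 18 fell, 3 rose and 6 did not pass, beside 15.8% falling among all genes, and the median log2 fold change was -0.46. Egfr, the EGF receptor, counted 116, 109 and 74 with sgNT and 11.9, 4.34 and 12.4 with sgB2m, a 10.4-fold fall (log2 fold change -3.34 ± 0.43 SE, adjusted p = 0.000299). Its ligand Btc, betacellulin, counted 135, 175 and 166 against 31.4, 27.1 and 41.8, a 4.74-fold fall (log2 fold change -2.22 ± 0.24 SE, adjusted p = 0.000113). Erbb3, a partner receptor, counted 580.3, 452 and 466 against 166, 180.2 and 181, a 2.84-fold fall. Receptors and ligand were lower in every sgB2m library.

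ERK phosphatases and ERK-induced factors fell as well. Dusp4, a nuclear phosphatase of ERK, counted 9049, 8849 and 8079.6 with sgNT and 3604, 3237 and 3919.6 with sgB2m, a 2.41-fold fall (log2 fold change -1.27 ± 0.072 SE, adjusted p = 1.43e-06). Dusp6, its cytoplasmic counterpart, counted 2315, 2619 and 2566 against 1057, 1106 and 1253, a 2.2-fold fall. Hbegf, another ligand, fell by 1.12 on the log2 scale. Among members outside the naming rule and chosen after their values were seen, the ETS factors Etv5 and Etv4 fell by 0.96 and 0.77 on the log2 scale, and the inhibitors Spry4 and Spry2 fell by 0.57 and 0.54. Ereg, epiregulin, was one of the 3 that rose (5 without sgNT replicate 1), from 201, 218 and 223 to 528, 421 and 383. The change in MC38 was more negative than the mean of the other lines for 17 of the 22 members tested in all lines and more positive for 3. Over the 12674 genes tested in all lines, these calls went to 20.9% and 20.8%. The members' median was -0.45 in LLC1, 0.07 in AKR and 0.32 in Hepa1-6. Immediate early genes showed some falls of the same kind, since Egr3, Nr4a1 and Fosl1 fell by 1.92, 1.04 and 0.90 on the log2 scale. In all, however, 6 of the 27 tested rose (22.2%, beside 15.9% of all genes) and 9 fell (33.3%, beside 15.8%).

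Some Notch genes fell. Of 17 tested ligands, receptors, regulators and targets 5 fell (29.4%, beside 15.8% of all genes) and 2 rose, or 1 rose without sgB2m replicate 3 and 3 without sgB2m replicate 2 or sgNT replicate 1, with a median of 0.03. Hes1, a Notch-induced repressor, counted 365, 344 and 341 with sgNT and 128, 109 and 130.2 with sgB2m, a 2.86-fold fall (log2 fold change -1.51 ± 0.14 SE, adjusted p = 3.34e-05). Nrarp, a feedback regulator of Notch, counted 485, 639 and 670.1 against 244, 195 and 229, a 2.68-fold fall. The ligand Jag1 counted 883, 733 and 623 against 355, 335 and 404, a 2.05-fold fall. None of the 3 overlapped between guides. The receptor Notch1 fell by 0.62 and Notch2 rose by 0.66 on the log2 scale. Hey1, another target, fell 2.04-fold, a call that was lost without sgNT replicate 2.

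Single genes of the Hedgehog, Wnt and BMP pathways changed while the medians of their lists were -0.01, 0.01 and 0.00. Gli1, the transcription factor that Hedgehog signalling induces, counted 169, 135 and 186 with sgNT and 23.9, 16.3 and 17.1 with sgB2m, an 8.55-fold fall (log2 fold change -3.04 ± 0.26 SE, adjusted p = 2.48e-05). Cdon, a Hedgehog co-receptor, rose from 576, 565 and 597 to 1601, 1542 and 1591. Of 10 tested Hedgehog genes 3 rose (30%) and 2 fell (20%), beside 15.9% and 15.8% of all genes. Dkk2, a secreted Wnt modulator, counted 5969.6, 5522 and 5401 against 927, 756 and 942, a 6.44-fold fall (log2 fold change -2.69 ± 0.086 SE, adjusted p = 2.79e-08). Of 32 tested Wnt genes 7 fell (21.9%) and 3 rose (9.38%), or 5 rose without sgNT replicate 1. The falls included the receptor Fzd3 (2.92-fold) and the ligand Wnt9a, which counted 50.5, 97.3 and 65.4 against 28.2, 22.8 and 18.1. Bmp2, a BMP ligand, counted 344, 314 and 250.0 against 71.6, 53.2 and 33.3, a 5.75-fold fall (log2 fold change -2.55 ± 0.27 SE, adjusted p = 9.51e-05). Tgfbr3, betaglycan, a co-receptor for TGF-beta, counted 3924, 3735 and 3321 against 11530.3, 10592 and 10828, a 3-fold rise. Of 43 TGF-beta and BMP genes 9 rose (20.9%) and 12 fell (27.9%).

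**Figure D3:**
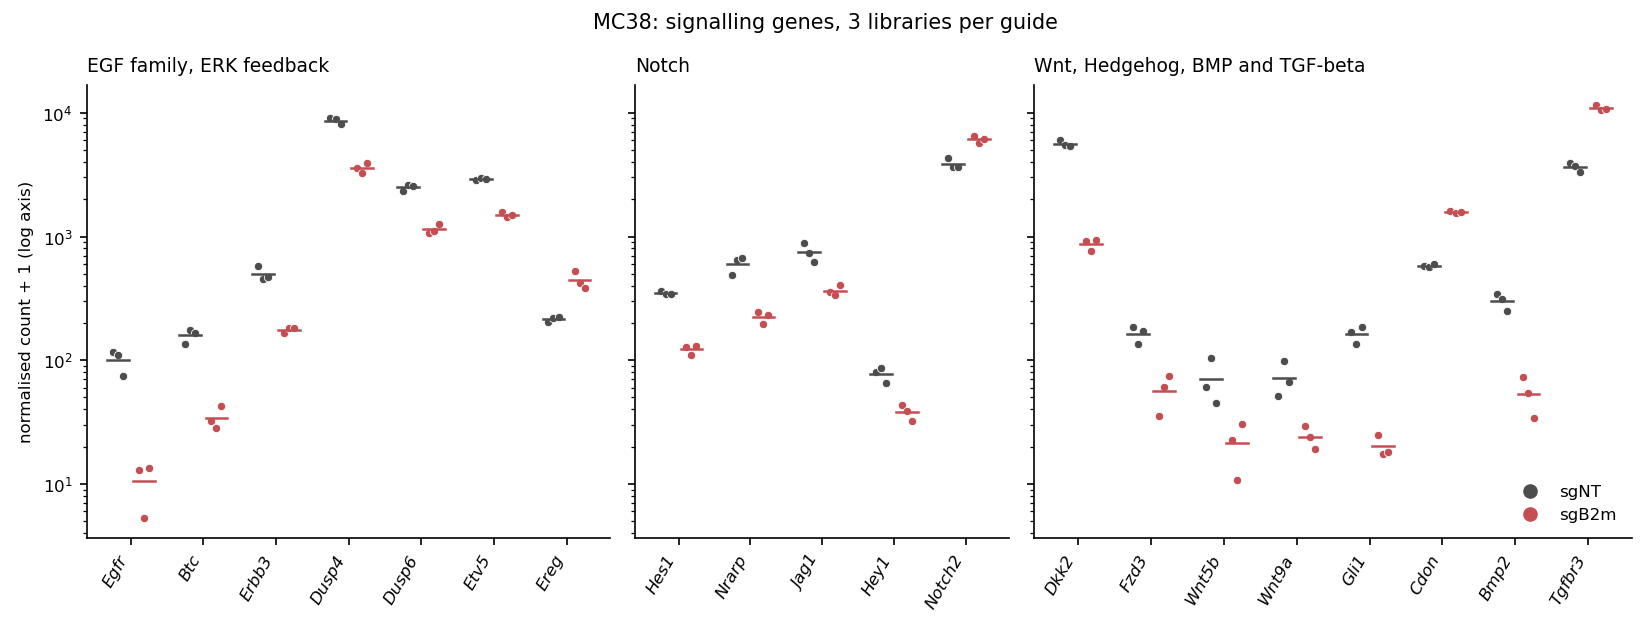
Normalised count plus 1 on a log axis in each MC38 library (grey, sgNT; red, sgB2m; lines, group means) for EGF and ERK, Notch, and Wnt, Hedgehog and TGF-beta genes. Egfr, Gli1 and Dkk2 fell 10.4-fold, 8.55-fold and 6.44-fold, while Ereg, Notch2, Cdon and Tgfbr3 were higher with sgB2m.

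Growth factors and guidance receptors changed gene by gene. Fgf7, a fibroblast-derived mitogen of epithelia, counted 1170.2, 1105 and 1039 with sgNT and 4721, 4489 and 4367 with sgB2m, a 4.1-fold rise (log2 fold change 2.03 ± 0.062 SE, adjusted p = 2.04e-08). Flt1, a VEGF receptor, counted 296, 332 and 345 against 94.3, 60.8 and 82.7, a 4.09-fold fall. Grb14, an adaptor that dampens insulin signalling, fell 4.04-fold and Igfbp7, which binds insulin-like growth factors, rose 2.78-fold. Among 54 tested guidance genes 16 rose and 16 fell (29.6% each, beside 15.9% and 15.8% of all genes). Sema3f, a secreted semaphorin, counted 62.1, 49.9 and 35.2 against 248, 321 and 362, a 6.33-fold rise, and Nrp1, a semaphorin and VEGF receptor, rose 3.35-fold. Plxnb1, a semaphorin receptor, counted 505, 494 and 499.9 against 108, 85.7 and 116, a 4.83-fold fall. The guides were separated for each of them.

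Several large machines showed many small falls. Of 37 tested proteasome subunits 24 fell (64.9%, beside 15.8% of all genes) and 1 rose, with a median log2 fold change of -0.24. Psma7, a subunit of the core ring, counted 7225, 8089 and 8465 with sgNT and 4795, 5089 and 4775 with sgB2m (log2 fold change -0.70 ± 0.061 SE, adjusted p = 2.74e-05), and Psmd8, of the regulatory cap, fell by 0.48 on the log2 scale. Of 80 nuclear genes of the respiratory chain 33 fell (41.2%) and 4 rose, with a median of -0.20. Atp5a1, the alpha subunit of ATP synthase, counted 32785, 33673 and 34626 against 21918, 22024 and 21862, a fall of 0.62 on the log2 scale. No library of either guide crossed into the other for Psma7 or Atp5a1. Of 78 mitochondrial ribosomal proteins 26 fell (33.3%) and none rose (median -0.19), and Mrpl53 fell by 0.83. Of 50 ribosome biogenesis genes 21 fell (42%) and 4 rose (median -0.16), with Rrp9, a small nucleolar particle protein, falling by 0.78. Of 24 cytosolic heat shock genes 10 fell (41.7%) and 1 rose, led by Cryab, a small heat shock protein, with 4102, 4238 and 4463 against 2510.1, 2170.5 and 2374.

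These counts depended on single libraries. Fallen respiratory chain genes numbered 18, 20 and 21 without sgB2m replicate 1, sgB2m replicate 3 or sgNT replicate 2 and 49 without sgNT replicate 1, and 12 when limma was run without its trend of variance on level. For mitochondrial ribosomal proteins the count was 17 without sgB2m replicate 1, sgNT replicate 2 or sgNT replicate 3, 40 without sgNT replicate 1 and 16 without the trend. For proteasome subunits the leave-one-out range was 21 to 27. For ribosome biogenesis it was 15 to 20, with 13 without the trend, and for heat shock genes 5 to 12, with 5 without the trend or without sgB2m replicate 3 and 6 without sgB2m replicate 1. Medians stayed below 0 under median centring and quantile normalisation. Cytosolic ribosomal proteins gave no stable count: 14 of 86 fell (16.3%, near the 15.8% of all genes), but 50 did without sgNT replicate 1, 6 without sgNT replicate 2 and 7 without sgB2m replicate 1. The 13 protein-coding genes of the mitochondrial genome did not fall with their nuclear partners. Of these, 5 rose (38.5%, beside 15.9% of all genes), or 9 without sgNT replicate 3, and 2 fell (15.4%), with a median of 0.09.

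Transcript length moved with these changes. Protein-coding genes were divided into 5 bins of equal size by total exon length, and the median log2 fold change was -0.10, -0.06, -0.02, 0.03 and 0.08 from the shortest to the longest. Without sgNT replicate 1 the shortest and longest bins had medians of -0.14 and 0.13, and without sgNT replicate 3 they had -0.07 and 0.05. In the shortest bin (204 to 2503 bases) 10.6% of genes rose and 21% fell, and in the longest (7606 to 123179 bases) 29.4% rose and 13.9% fell. The medians of the other lines ran from 0.01 to -0.02 in LLC1, 0.11 to -0.14 in AKR and -0.07 to 0.04 in Hepa1-6. Within the bins, respiratory chain genes had medians of -0.22, -0.18, -0.07, -0.07 and -0.08, from 57, 13, 7, 2 and 1 genes. Mitochondrial ribosomal proteins had -0.20, -0.20, -0.20, -0.10 and -0.16, from 39, 16, 9, 9 and 5 genes. Medians of the longer bins thus rest on few genes. The part of length in the falls was not tested.

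**Figure D4:**
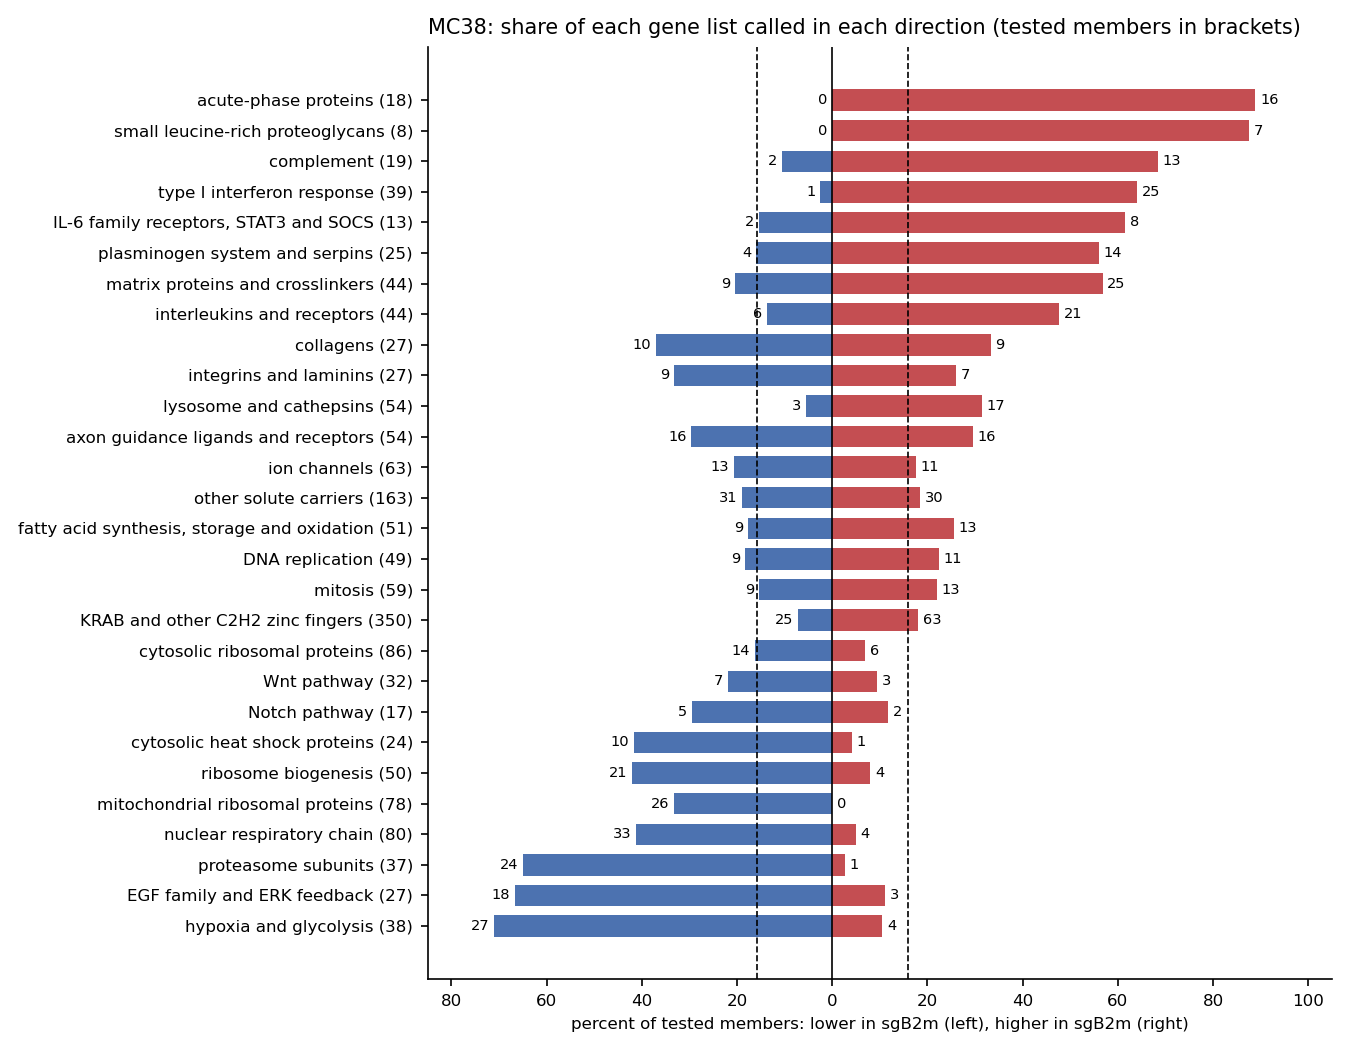
Percent of tested members that rose (right, red) or fell (left, blue) at an adjusted p under 0.05 in a choice of the 75 gene lists, with counts at the bar ends and dashed lines at the shares over all genes (15.9% and 15.8%). Over all 75 lists, shares that rose were highest for acute-phase genes (16 of 18), small leucine-rich proteoglycans (7 of 8, a list made after the values were seen) and complement (13 of 19), and shares that fell were highest for hypoxia and glycolysis (27 of 38), EGF and ERK feedback (18 of 27) and proteasome subunits (24 of 37). All lists were chosen with earlier results of these data known, so this ranking is a description.

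Of 38 tested hypoxia and glycolysis genes 27 fell (71.1%, beside 15.8% of all genes) and 4 rose, with a median of -0.28. Their log2 fold changes ran from -1.30 to 2.68, so the largest change was a rise. Counts with single libraries left out are not given for this list. Of the 35 tested in all lines, the change was more negative in MC38 than the mean of the other lines for 24 and more positive for 4. Those calls went to 20.9% and 20.8% of the 12674 genes tested in all lines. The members' median was 0.17 in LLC1, -0.10 in AKR and -0.04 in Hepa1-6. Several other groups had medians near 0. Of 54 lysosomal genes 17 rose (31.5%, beside 15.9% of all genes) and 3 fell (5.56%, beside 15.8%), with a median of 0.12. The 3 that fell became 5 without sgNT replicate 1 and 1 without sgB2m replicate 1 or sgNT replicate 3. Without limma's trend 10 rose. Lamp2, a lysosomal membrane protein on the X chromosome, counted 13361, 12566 and 12671 with sgNT and 22170.4, 22199.7 and 22246 with sgB2m, a rise of 0.79 on the log2 scale, while the cathepsin Ctsh fell by 1.06. Of 350 KRAB and other zinc finger genes 63 rose, which at 18% was close to the 15.9% of all genes, and 25 fell (7.14%), with 34 rising without the trend and 40, 35 and 36 without sgB2m replicate 1, 2 or 3 and 38 and 41 without sgNT replicate 2 or 3. The 49 DNA replication genes and the 59 mitotic genes had medians of 0.01 and 0.02, so proliferation genes showed no shared direction. Among p53 targets, Fas, a death receptor, counted 82.5, 68.6 and 72.5 against 450.0, 410.2 and 421, a 5.73-fold rise, and Cdkn1a, a brake on cyclin-dependent kinases, counted 4796, 4700.0 and 5067 against 2279, 2254 and 2158, a 2.18-fold fall.

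Small-molecule transport changed through single genes. Slc14a1, a urea transporter, counted 8823, 8552 and 8503 with sgNT and 604, 724 and 645 with sgB2m, a 13.1-fold fall (log2 fold change -3.72 ± 0.07 SE, adjusted p = 4.41e-10). Slc6a12, a betaine carrier, counted 14.6, 16.2 and 28 against 258, 306 and 322, a 15.1-fold rise (log2 fold change 3.90 ± 0.27 SE, adjusted p = 6.03e-06). Each guide's 3 libraries stood together for both. Among 163 tested solute carriers outside the amino acid group, 30 rose (18.4%) and 31 fell (19%) with a median of 0.00. These shares were near the 15.9% and 15.8% of all genes. Of 63 ion channel genes 11 rose (17.5%) and 13 fell (20.6%), also near the shares of all genes. The falls were led by Kcnk6, a potassium channel that went from 165, 111 and 188 to 0, 2.17 and 21.9. They included Trpv4, a cation channel that fell 3.43-fold.

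Enzymes of nucleotide and aldehyde metabolism changed in the same way. Nt5e, the ectoenzyme CD73 that makes adenosine from AMP, counted 424, 384 and 315 with sgNT and 57.5, 31.5 and 17.1 with sgB2m, a 10.6-fold fall (log2 fold change -3.52 ± 0.36 SE, adjusted p = 7.92e-05). Enpp2, autotaxin, which makes lysophosphatidic acid, counted 1239, 1196 and 1235 against 4499, 4446 and 4619, a 3.7-fold rise. Of 51 purine and pyrimidine genes 11 rose and 11 fell (21.6% each, beside 15.9% and 15.8% of all genes), or 7 fell without sgB2m replicate 1 or 3. Aldh1a1, a retinaldehyde dehydrogenase, counted 25.2, 22.5 and 48.8 against 356, 410.2 and 287, a 10.9-fold rise, and its paralog Aldh1a7 rose 12-fold, with reads that may be shared between the 2. Akr1c18, a progesterone-reducing enzyme, counted 127, 94.8 and 171 against 19.5, 3.26 and 4.75, a 14.3-fold fall, whereas Akr1c14, a related enzyme, rose from 95.1, 82.3 and 56.7 to 312, 342 and 355. Gstt3, a glutathione transferase, fell from 186, 128 and 130.0 to 9.76, 10.9 and 5.7. All of these were separated between guides.

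Lipid genes followed no single direction. Of 51 tested, 13 rose (25.5%, beside 15.9% of all genes), or 8 without limma's trend, and 9 fell (17.6%, beside 15.8%). Fabp4, a fatty acid carrier of adipocytes and macrophages, counted 299, 316 and 312 with sgNT and 1844, 1810.2 and 1883 with sgB2m, a 5.98-fold rise (log2 fold change 2.58 ± 0.074 SE, adjusted p = 1.18e-08). Ppargc1a, a coactivator of mitochondrial genes, rose from 27.2, 17.5 and 25.1 to 160.5, 179 and 155. Scd3, a desaturase, fell from 295, 247 and 231 to 27.1, 39.1 and 39. Plin4, a lipid droplet coat protein, rose 2.46-fold.

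Transcription factors included a few that were nearly silent with sgNT. Klf15, a metabolic regulator that glucocorticoids induce, counted 8.73, 0 and 5.03 with sgNT, 16 reads in all, and 160.5, 141 and 163 with sgB2m (log2 fold change 5.32 ± 0.72 SE, adjusted p = 0.000427). With any sgB2m library left out it no longer passed the level filter. Hlf, a PAR bZIP factor, counted 27.2, 7.48 and 38.1 against 387, 382 and 407, a 16.2-fold rise, and Foxp2, a forkhead factor, counted 12.6, 0 and 7.9 against 119, 127 and 138. The sgB2m libraries were high and close to each other in each case. Gata2, a GATA factor, fell 2.36-fold. Over the 79 tested SOX, FOX, GATA, KLF, TBX and PAX genes 18 rose (22.8%) and 23 fell (29.1%), beside 15.9% and 15.8% of all genes. Among 32 HOX genes 2 rose (6.25%) and 3 fell (9.38%). These HOX counts were 1 and 1 without sgB2m replicate 2 and 1 and 2 without sgB2m replicate 1 or 3. They were 1 and 4 without sgNT replicate 1, 2 and 1 without sgNT replicate 2, and 1 and 3 without sgNT replicate 3.

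The most strongly lowered genes over the whole table also held members of no list. By the naming rule for all genes, the lowest were Slc7a2, an amino acid carrier, Pcdhgb4, a clustered protocadherin, and Pdzrn3. With any sgNT library left out, Pcdhgb4 and Pdzrn3 no longer passed the level filter. The next ones are described here. Emb, embigin, a chaperone of lactate carriers, counted 282, 222 and 329 with sgNT and 18.4, 11.9 and 12.4 with sgB2m, a 19.5-fold fall. Padi2, an arginine deiminase, counted 956, 1020.3 and 835 against 74.8, 45.6 and 111, a 12.1-fold fall. Dock10, a guanine nucleotide exchange factor, counted 2013, 1627 and 1488 against 166, 176 and 128, a 10.9-fold fall. No library overlapped for these 3. Hao1, a peroxisomal glycolate oxidase, fell 8.4-fold, Prph, a neuronal intermediate filament, 9.31-fold and Mcam, the adhesion molecule CD146, 8.29-fold.

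Chromosome position moved with the direction of change. Over all genes 15.9% rose and 15.8% fell. On chromosome 1, 398 of 1013 tested genes rose (39.3%) and 36 fell (3.55%), with a median of 0.23. On the X chromosome 167 of 517 rose (32.3%) and 46 fell (8.9%), with a median of 0.14. On chromosome 18, 32 of 437 rose (7.32%) and 169 fell (38.7%), with a median of -0.21. Of 239 windows of 10 Mb with at least 20 genes, the lowest median, -0.52, was that of 70 to 80 Mb on chromosome 18. There 28 of 42 genes fell (66.7%) and 1 rose (2.38%). The start of that chromosome, 0 to 20 Mb, had window medians of 0.05. Slc14a1, the lowest of the solute carriers described above, Rpl17, the lowest cytosolic ribosomal protein gene, and Atp5a1 lie in the window of 70 to 80 Mb. Further genes there, chosen after their values were seen, were Pstpip2, an adaptor of the actin cytoskeleton, with 191, 135 and 103 against 0, 5.43 and 10.5, and Siglec15, a sialic acid receptor, with 31.1, 18.7 and 14.4 and no read in any sgB2m library, at least 6.85-fold lower against 3 reads per library. Epg5, between them, was not called (log2 fold change -0.15, adjusted p = 0.168). The part of chromosome position in the changes of these genes was not tested.

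**Figure D5:**
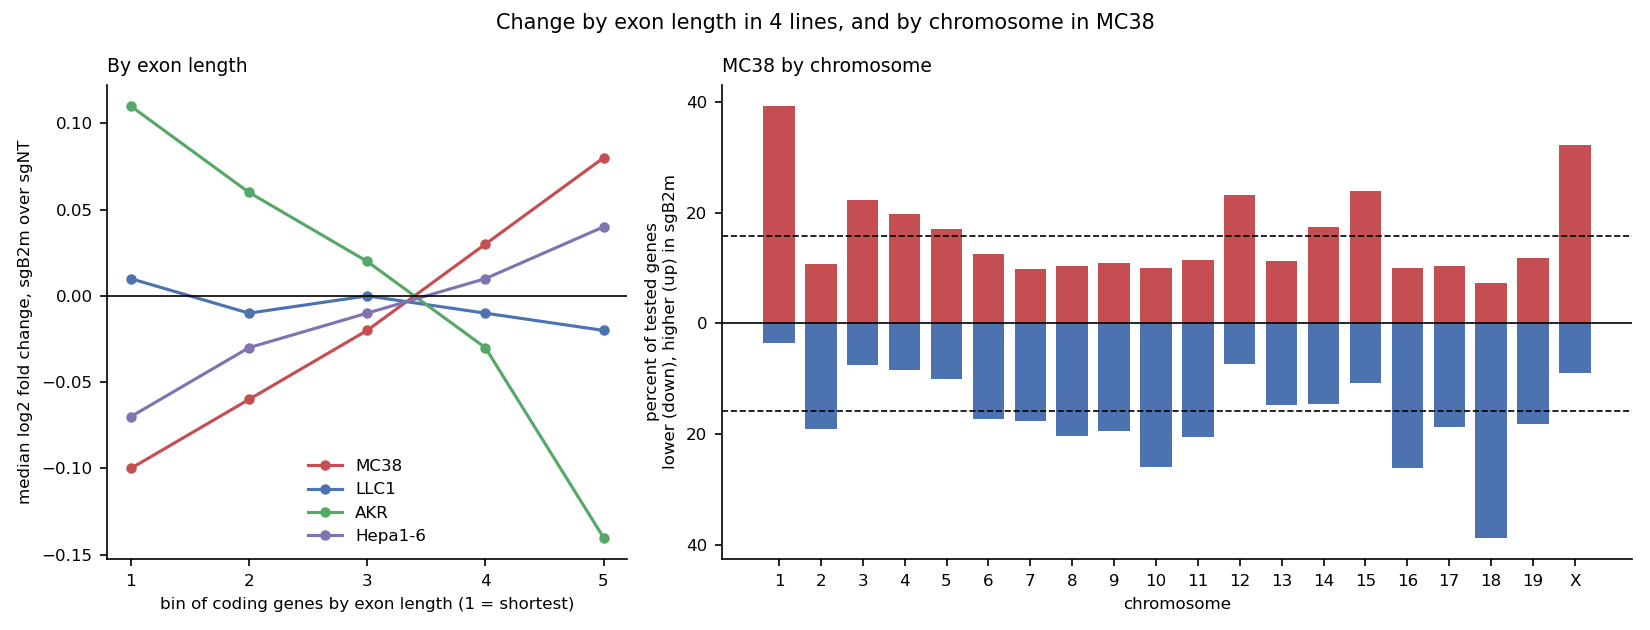
Left, median log2 fold change (sgB2m minus sgNT) by bin of exon length (1 shortest, 5 longest) in each of the 4 cell lines. Right, percent of tested MC38 genes on each chromosome that rose or fell, with dashed lines at the shares over all genes (15.9% and 15.8%). In MC38 the median ran from -0.10 in the shortest to 0.08 in the longest bin, and chromosomes 1 (39.3% rose) and 18 (38.7% fell) stood apart.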

How the data were processed

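Bulk RNA-seq of 6 MC38 libraries was analysed, with 18 libraries of 3 other lines for the test between lines. The submitters' processing notes list mm10 as the build and, as tools, STAR, DESeq2 and FastQC 0.11.5. The gene counter, annotation and strand setting are not given in the sources used here. The authors deposited log2 values, 1 table per line. Returned to the linear scale and multiplied by a size factor, the MC38 values were whole reads within 0.05 reads for 100% of entries, with 28352817 to 49717598 reads per library.

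Genes reaching a log2 value of 3.5 in 3 or more libraries were tested with limma 3.58.1 (R 4.3.3, intensity trend, Benjamini-Hochberg adjustment over all tested genes), a fit checked on simulated data. A model over the genes tested in all 4 lines tested the MC38 change against the mean change of the others. A value of 0 was replaced by 3 reads per library for a bound on a fold. Gene positions came from GENCODE M21 (GRCm38). Same-numbered libraries of the 2 guides did not deviate together (r = 0.07, -0.03 and -0.10), so no block was used.

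Members and gene lists were chosen with earlier results of these data known. From each described list, up to 5 called genes were named by size of change, with a log2 mean of at least 6 in the higher group and no overlap of guides. Over all genes, the 12 highest and 12 lowest at a log2 mean of at least 8 were named, and the 8 highest and 8 lowest at a mean over all libraries of at least 11. Not every gene named by these rules is described. Nxf3, Hsd11b1 and Nlrp2, among the highest over all genes, are not. Named outside this rule, after their values were seen, were C1ra, C1rl, C4a, Cfb, Saa3, Serpina3h, Serpina9, Dicer1, Cenpp, Ereg, Hbegf, Etv4, Etv5, Spry2, Spry4, Fosl1, Notch1, Il11, Il1r1, Epg5, Pstpip2, Siglec15, Plau and Plaur. Alternatives covered filters, pseudocount, normalisation, trend, limma-voom on reads, the replicate block and leaving out each library.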

Additional observations from a re-analysis of the deposited data

Results flagged for a closer look

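In a model over all 4 lines, the change with sgB2m in MC38 differed from the mean change of LLC1, AKR and Hepa1-6 for 5287 of the 12674 genes tested in all lines (41.7%), at an adjusted p under 0.05. The tables were normalised separately, so only changes within a line were compared. Of 38 genes named from the extremes of the MC38 table, 16 were tested in all lines. They were chosen for large changes in MC38, so that each of the 16 differed from the other lines was largely fixed by the choice, and the values are a description. Differences below are log2 fold changes in MC38 minus the mean of the other lines. They were more positive in MC38 for Aspg (5.60), Thbs1 (4.51), Lcn2 (3.44), Osmr (3.25), Sned1 (3.21), C3 (2.33) and C1s1 (2.18). They were more negative for Nt5e (-3.81), Slc14a1 (-3.53), Mcam (-3.08), Prph (-3.05), Pxdc1 (-1.51), Lars2 (-1.14), Dusp4 (-1.001) and Pla2g7 (-0.999). B2m, the targeted gene, differed by -0.23. Lars2, a mitochondrial leucyl-tRNA synthetase, spread widely among sgNT libraries, with 5139, 7352 and 11267 normalised counts, against 3453, 2286 and 3609 with sgB2m.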

How the results depend on the processing

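The 5251 called genes became 3651 without the intensity trend, 5293 with limma-voom on reads, 5120 with the replicate block and 4403 without chromosomes 1, 18 and X, an alternative chosen after seeing the data. Leaving out 1 library gave 3858 to 6082, for calls of at least 2-fold 778 to 1024 (979 with all libraries), and for differences from the other lines 4691 to 5530 (5287 with all). These 3 totals stayed within 1.5 times, but the 405 genes that fell at least 2-fold became 268 without sgNT replicate 2 and 263 without sgNT replicate 3. Counts in several gene lists moved more, as given beside those lists. Such counts are not given beside every list, and not for hypoxia and glycolysis. Without the replicate 1 library of sgNT, 4840 of the 5251 calls were kept among 6082. Of 4974 alternative results for 357 named genes, 4815 kept direction and side of the threshold, 158 lost the call, which touched 47 genes, 1 gained it and none reversed. The replicate number did not pair the libraries, and the block kept 4879 of the 5251 calls. Depth limits low genes: Serpina3f and Klf15 rested on 17 and 16 reads with sgNT. Each lone value covers counting and library spread only, and 3 libraries per guide leave the spread between cultures unmeasured where they were not separate.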

Other observations

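Some gene groups outside the report's main results also moved. The genes of the plasminogen system and other serpins overlap the acute-phase list through the Serpina3 cluster. Of 25 tested, 14 rose (56%, beside 15.9% of all genes) and 4 fell (16%, beside 15.8%). Of the 14, 3 (Serpinb7, Serpinb9c and Serpinb9g) passed the level filter only through the sgB2m libraries, and of the other 22 tested 11 rose. Without sgB2m replicate 2 or 3, 9 of 22 tested rose. The urokinase genes did not move together: Plau, the protease, rose by 0.90 on the log2 scale, while its receptor Plaur fell by 0.75. Of 23 tested iron handling genes 12 rose (52.2%) and 4 fell (17.4%).

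Prostaglandin genes changed in both directions. Ptgfr, the receptor for prostaglandin F, counted 79.6, 93.6 and 81.9 normalised counts with sgNT and 340.5, 389 and 317 with sgB2m, a 4.1-fold rise. Slco2a1, a prostaglandin carrier, rose 3.67-fold, from 389, 369 and 333 to 1402, 1294 and 1310.3. The libraries of the 2 guides did not overlap for either gene. Ptgs2, the inducible cyclooxygenase, fell 1.58-fold. Over the 20 tested prostaglandin genes 5 rose (25%, beside 15.9% of all genes) and 6 fell (30%, beside 15.8%), with a median of -0.06. Abcd2, a peroxisomal fatty acid transporter, rose 2.91-fold.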
